A study of Mus musculus with 12 samples.

Results

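Pax3, Pax7, Six2, Six4, Six5, Eya1 and Eya2 are transcription factors and cofactors that act above the myogenic regulators, and they were chosen by name as 7 of the 22350 protein-coding genes whose chromatin was measured. For each gene, reads of 6 histone marks were counted in 3 windows. These were the 2 kb on either side of the transcription start site (TSS), the rest of the gene body, and the 50 kb on either side of the gene. Where a gene has several annotated starts, the start with the most H3K4me3 reads was used. All coordinates are on mouse build mm9.

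The study sequenced chromatin immunoprecipitates (ChIP-seq) of C2C12, an established mouse myoblast line of strain C3H, at passages 15 to 18. The myoblast libraries came from nearly confluent cells kept in 10% serum, and the myotube libraries from cells about 5 days after serum was withdrawn. Light trypsin treatment parted the myotubes from residual cells that had not fused, so the unfused cells of the differentiated cultures are not the intended sample. How many of them remained was not measured here. There was 1 library for each of the 6 marks in each of the 2 cell types, all from the same line with no engineered allele, and neither a replicate nor an input library was used here.

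Pax3 and Pax7 are paired-box transcription factors that mark the progenitors of skeletal muscle. Pax3 acts mainly in the embryo and Pax7 is needed to maintain the satellite cells of adult muscle. Six2, Six4 and Six5 are homeodomain proteins of a family that binds DNA at MEF3 motifs, and Eya proteins are recruited to them as coactivators with phosphatase activity; this network sits upstream of the genes for the myogenic factors. H3K4me3 marks active or poised promoters, H3K4me2 and H3K4me1 extend over promoters and enhancers, H3K27ac marks those that are active, H3K36me3 covers transcribed gene bodies, and H3K27me3 is laid down over genes silenced by Polycomb proteins.

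The 12 libraries held between 1858771 and 7033100 reads, or 0.727 to 2.75 reads per kb of genome, and the H3K27ac library of myoblasts was the smallest. Levels are given as reads and as fold, the reads in a window over those of an average stretch of the genome of the same length. Intervals in brackets are exact 95% Poisson intervals for a fold and exact conditional intervals for a ratio of myotubes to myoblasts scaled by total reads, and they cover counting error only. A TSS was called marked at 3-fold or more, a gene body at 2-fold or more for H3K36me3, with the lower bound above 1. A ratio was called past 2-fold where it was at least 2 or at most 0.5, its interval left out 1 and both libraries together held at least 20 reads. With 1 library per group these ratios compare the libraries and not the conditions, and more cells carrying a mark cannot be told apart from more of the mark per cell. Among genes marked in each of the cell types, the median ratio itself lay under 1 for H3K4me2 (0.652) and H3K27ac (0.627), a shift of -0.62 and -0.67 on the log2 scale, and it was 0.823 for H3K27me3, 0.861 for H3K4me1, 0.909 for H3K4me3 and 1.04 for H3K36me3. Where scaling by that median ends a call at any of the 7 genes, that is said with the result. Marker genes were read as a check of the labels. All 10 differentiated-muscle genes were past 2-fold higher in myotubes for both H3K4me3 and H3K27ac, and all 6 proliferation genes were past 2-fold lower for both, whereas of those 6 genes 2 were lower for H3K4me2 and 0 for H3K4me1. In myotubes all 6 proliferation genes were still called marked for H3K4me3, and 2 of them for H3K27ac. Of 14 genes of other cell types 3 carried H3K4me3 in myoblasts and 2 in myotubes.

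At the TSS the 7 genes differed in their chromatin. Six4, Six5 and Eya1 carried H3K4me3, H3K4me2 and H3K27ac in both cell types. Without H3K4me3, Six2 carried H3K27me3 in myoblasts and Eya2 in both cell types, and Pax7 carried both marks in myoblasts. Pax3 carried none of the 6 marks. H3K4me3 marked 4 of the 7 genes in myoblasts (Pax7, Six4, Six5 and Eya1), where 50.7% of all genes were marked, and 3 of 7 in myotubes (Six4, Six5 and Eya1), where 51.1% were. H3K27ac marked the same 4 genes in myoblasts, against 49.5% of all genes, and the same 3 in myotubes, against 43.5%. H3K27me3 marked 3 of 7 in myoblasts (Pax7, Six2 and Eya2), against 10.0% of all genes, and 1 of 7 in myotubes (Eya2), against 7.11%. The pair of H3K4me3 and H3K27me3 was called at 1 of 7 in myoblasts (Pax7), against 1.34% of all genes, and at 0 of 7 in myotubes, against 0.685%.

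**Figure D1:**
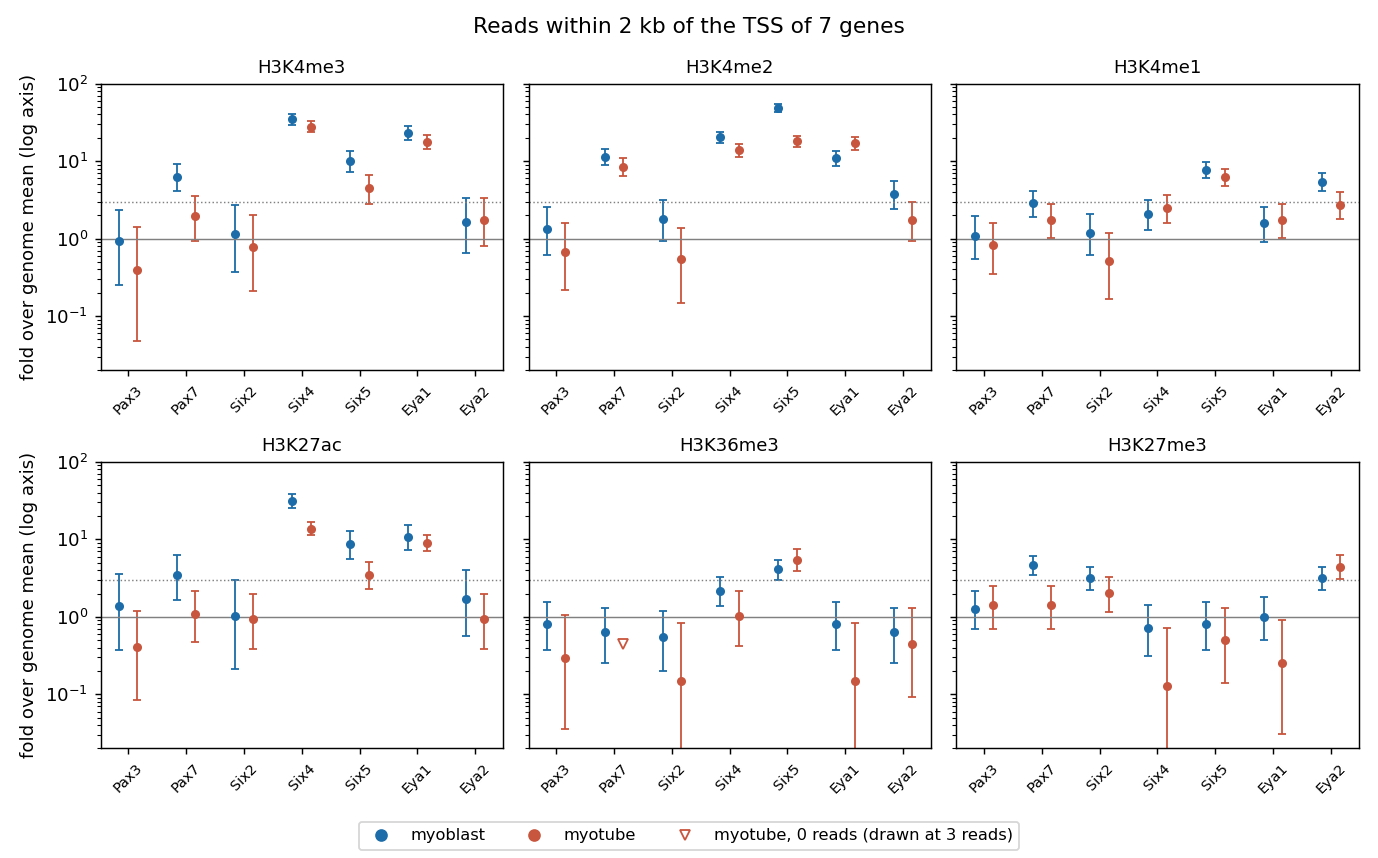
Fold over the genome mean within 2 kb of the TSS (log axis) of the 7 genes, a panel for each mark, in myoblasts and myotubes. Bars are exact 95% Poisson intervals of 1 library each, the solid line is the genome mean and the dotted line the 3-fold threshold, and the open triangle is a library with 0 reads drawn at the level of 3 reads. Bars that meet the lower edge extend below it. Six4, Six5 and Eya1 stood above 3-fold for H3K4me3 and H3K27ac in both cell types, and Pax7 dropped from 6.23-fold to 1.94-fold for H3K4me3 and from 4.65-fold to 1.40-fold for H3K27me3.

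Between cell types the TSS of 2 genes was past 2-fold lower in myotubes for H3K4me3 (Pax7 and Six5), where 6.59% of the genes tested were. For H3K27me3 1 gene was past 2-fold lower (Pax7), against 7.98%. For H3K4me2 2 genes were past 2-fold lower (Six5 and Eya2), against 31.0%, and for H3K27ac 2 genes (Six4 and Six5), against 36.5%. None of these 4 calls for H3K4me2 and H3K27ac was left once ratios were taken relative to the median of marked genes. None of the 7 genes was past 2-fold lower for H3K4me1 or H3K36me3 at the TSS, against 15.2% and 11.0% of genes, although Eya2 was for H3K4me1 within 1 kb of the TSS. None was past 2-fold higher in myotubes for any mark at the TSS, where 4.50% of genes were for H3K4me3, 3.10% for H3K4me2, 7.37% for H3K4me1, 6.06% for H3K27ac, 4.89% for H3K36me3 and 1.88% for H3K27me3. The median ratio of the members with at least 20 reads was 0.608 over 4 genes for H3K4me3, beside 0.912 over all 12168 genes tested, and 0.870 over 4 genes for H3K27me3, beside 0.866 over 7922.

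**Figure D2:**
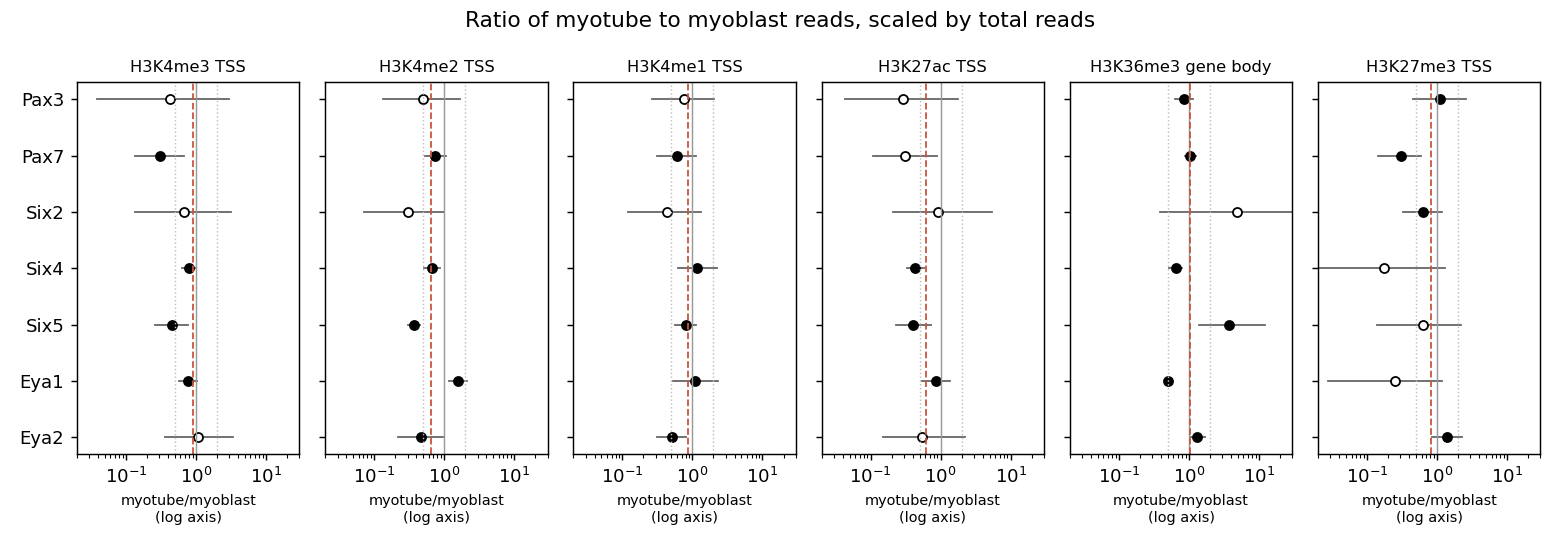
Ratio of myotube to myoblast reads scaled by total reads (log axis) for each gene, at the TSS and, for H3K36me3, over the gene body. Points are ratios with their exact 95% intervals, open where both libraries together held under 20 reads, the dashed line is the median of genes marked in both cell types and the dotted lines are at 0.5 and 2. Intervals that meet an edge extend beyond it. The H3K4me3 and H3K27me3 ratios of Pax7 were 0.312 and 0.302, and its H3K36me3 ratio over the gene body was 1.05.

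Pax7 lies on the minus strand at chr4:139292977-139389445, with the start used here at 139388922 and a second start 523 bases upstream. H3K4me3 at its TSS was 27 reads in myoblasts, or 6.23-fold (4.10–9.06), and 10 reads in myotubes, or 1.94-fold (0.930–3.57). The ratio was 0.312 (0.134–0.664), and 0.343 relative to the median of marked genes, lower than for all but 1.60% of the genes tested. With a window of 1 kb on either side the H3K4me3 ratio was 0.392, and the call was lost because its interval then included 1. H3K27me3 was 51 reads in myoblasts, or 4.65-fold (3.46–6.11), and 11 reads in myotubes, or 1.40-fold (0.700–2.51). Its ratio was 0.302 (0.142–0.587), lower than for all but 1.67% of genes. Both marks thus lay above the threshold in myoblasts and below it in myotubes.

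H3K4me2 at the Pax7 start was 76 reads in myoblasts and 63 in myotubes, or 11.3-fold and 8.47-fold, with a ratio of 0.748 (0.527–1.06) that was not past 2-fold. The promoter therefore stayed called for H3K4me2 in myotubes while H3K4me3 was no longer called. H3K27ac was 10 reads in myoblasts, or 3.44-fold (1.65–6.33), and 8 in myotubes, or 1.08-fold (0.467–2.13), too few for a call between the libraries. H3K36me3 over the gene body was near the genome mean in both, at 298 reads or 1.15-fold in myoblasts and 191 reads or 1.21-fold in myotubes, so this mark of transcription was not called over Pax7 in either cell type.

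The 300 bases upstream of the 5′-most Pax7 start, at chr4:139389446-139389745 on the minus strand, are shown because the marks that were lower in myotubes surround them. They hold 13 CpG dinucleotides, against a median of 9 over all 22350 genes, and an E-box CAGCTG, shown in capitals, the kind of site that myogenic factors bind.
Pax7 promoter: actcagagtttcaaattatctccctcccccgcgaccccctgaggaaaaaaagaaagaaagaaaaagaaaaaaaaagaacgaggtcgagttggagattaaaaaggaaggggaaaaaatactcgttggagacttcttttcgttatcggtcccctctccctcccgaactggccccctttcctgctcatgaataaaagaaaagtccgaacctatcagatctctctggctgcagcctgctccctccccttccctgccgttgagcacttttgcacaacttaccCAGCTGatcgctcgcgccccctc

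Around Pax7 the enhancer marks were lower in myotubes over a wide span. In the 50 kb on either side of the gene, H3K27ac was 371 reads in myoblasts, or 5.18-fold, and 174 reads in myotubes, or 0.956-fold. The ratio was 0.184 (0.153–0.222), or 0.294 relative to the median of marked genes, and all but 0.0863% of 20852 genes tested had a higher ratio in their own flanks. H3K4me1 there was 1118 reads and 323 reads, or 4.48-fold and 1.34-fold, with a ratio of 0.298 (0.263–0.338). H3K4me2 was 444 reads and 150 reads, or 2.69-fold and 0.819-fold, with a ratio of 0.305 (0.252–0.368). Pax7 was the only 1 of the 7 genes past 2-fold lower in its flanks for these marks, where 8.65% of genes were for H3K27ac, 3.23% for H3K4me1 and 5.49% for H3K4me2. No start of another protein-coding gene in the annotation used lay within those flanks.

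The gene body of Pax7 was like its flanks. H3K27ac over the body was 175 reads in myoblasts and 150 in myotubes, or 2.56-fold and 0.864-fold, with a ratio of 0.337 (0.269–0.422). H3K4me1 was 807 reads and 332 reads, or 3.39-fold and 1.44-fold, with a ratio of 0.425 (0.373–0.483), and H3K4me2 was 362 reads and 189 reads with a ratio of 0.471 (0.393–0.563). Again Pax7 was the only 1 of the 7 genes past 2-fold lower, where 10.9% of genes were for H3K27ac, 9.47% for H3K4me1 and 8.39% for H3K4me2. Relative to the median of marked genes the body ratios were 0.537 for H3K27ac, 0.494 for H3K4me1 and 0.723 for H3K4me2, so that only the H3K4me1 ratio stayed under 0.5.

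Part of the reads of these marks lay in distal H3K4me2 regions, defined as deposited H3K4me2 peaks of either cell type lying more than 2 kb from any annotated start. The 7 loci held 32 of the 35897 such regions of the genome. Six4 had 14 of them, Pax7 11, Pax3 4 and Eya1 3, and Six2, Six5 and Eya2 had 0. With at least 20 reads, 7 of 8 regions in the 7 loci were past 2-fold lower in myotubes for H3K27ac and 0 of 8 higher, where 20.1% of the distal regions tested were lower and 33.5% higher. Relative to the median of marked genes 4 of these 8 were lower and 1 was higher. That median was taken at the TSS and not over distal regions. The shares of all distal regions, here and below, are for scaling by total reads only, so the rescaled counts have no background. The median H3K27ac ratio was 0.318 over those 8 regions and 1.30 over the 13292 tested genome-wide. For H3K4me1 13 of 19 regions were lower and 1 higher, against 33.2% and 7.39%, and for H3K4me2 10 of 19 were lower and 2 higher, against 31.8% and 17.4%. Relative to the median of marked genes these became 10 lower and 2 higher for H3K4me1, and 4 lower and 3 higher for H3K4me2. All of the regions tested at Pax7 were lower for H3K27ac (4 of 4) and H3K4me1 (8 of 8), and 6 of 7 were for H3K4me2, and relative to that median 3 of 4, 6 of 8 and 3 of 7 were. Regions of 1 locus share their neighbourhood and are not replicates.

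The distal Pax7 region with the most H3K27ac reads, at chr4:139272004-139274545, lay 116 kb downstream of the TSS and beyond the end of the gene. H3K27ac there was 97 reads in myoblasts, or 52.5-fold, and 22 reads in myotubes, or 4.69-fold, a ratio of 0.0892 (0.0535–0.143). H3K4me1 was 157 reads and 28 reads, with a ratio of 0.184 (0.119–0.277), and H3K4me2 was 108 reads and 15 reads, with a ratio of 0.125 (0.0678–0.216). This region remained above the genome mean in myotubes for all 3 marks. A region 143 kb downstream had the highest H3K27ac fold of the locus in myoblasts, at 71 reads or 79.0-fold, and 12 reads or 5.25-fold in myotubes. Within the gene, an intronic region 61.6 kb downstream of the TSS had 39 H3K27ac reads in myoblasts and 14 in myotubes, or 34.3-fold and 4.84-fold, with a ratio of 0.141 (0.0708–0.266). The region at 135 kb kept the most H3K27ac in myotubes, at 32 reads or 15.9-fold, beside 29 reads or 36.7-fold in myoblasts, and its ratio of 0.434 was 0.692 relative to the median of marked genes and then no longer past 2-fold. The regions at 116, 135 and 143 kb were the only distal regions in the Pax7 flanks, all downstream. They held 97, 29 and 71 of the 371 myoblast H3K27ac reads of the flanks.

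**Figure D3:**
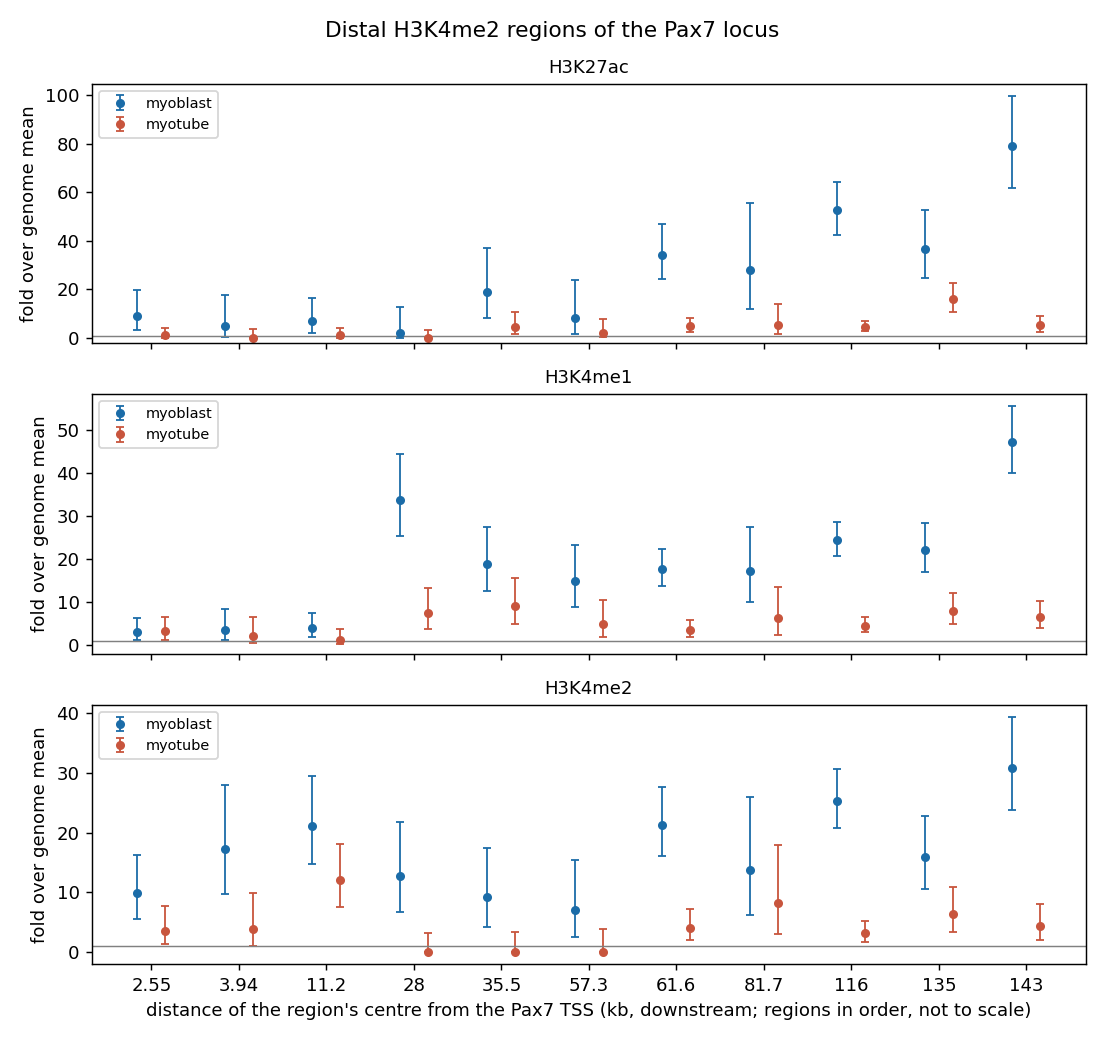
Fold over the genome mean of H3K27ac, H3K4me1 and H3K4me2 in the 11 distal H3K4me2 regions of the Pax7 locus, in order of their distance downstream of the TSS in kb. Points are single libraries of myoblasts and myotubes with exact 95% Poisson intervals, and the line is the genome mean. H3K27ac reached 79.0-fold in myoblasts in the region at 143 kb, and its highest myotube value was 15.9-fold at 135 kb.

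The 300 bases with the most H3K4me2 reads of the region at 116 kb, chr4:139272304-139272603 on the plus strand, are shown. They were taken from this region because the region as a whole had the largest H3K27ac count of the distal regions of the locus. Neither MEF3 (TCAGGTT, on either strand) nor the E-box CAGCTG occurs in them, and the whole region of 2542 bp holds 1 MEF3 match. Among the 300 central bases of all distal regions, 4.93% hold a MEF3 match and 24.3% an E-box. No such share is given for whole regions or for windows picked by their reads.
Pax7 distal region: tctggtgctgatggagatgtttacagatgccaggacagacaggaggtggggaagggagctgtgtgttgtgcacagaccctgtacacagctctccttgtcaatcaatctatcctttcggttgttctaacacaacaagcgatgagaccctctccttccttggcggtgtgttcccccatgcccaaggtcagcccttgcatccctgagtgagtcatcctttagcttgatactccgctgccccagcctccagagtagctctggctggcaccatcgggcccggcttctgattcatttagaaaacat

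Pax3, the embryonic counterpart of Pax7, lies on the minus strand at chr1:78097842-78193709 and carried no mark at its TSS. H3K4me3 was 4 reads in myoblasts and 2 in myotubes, or 0.922-fold and 0.388-fold, and H3K27ac was 4 reads and 3 reads. H3K27me3 at the TSS was 14 reads and 11 reads, or 1.28-fold and 1.40-fold, and over the gene body 466 reads and 330 reads, or 1.81-fold and 1.79-fold. Neither kind of mark was therefore called at the Pax3 start, although H3K27me3 lay above the genome mean over the gene. The TSS window held too few reads of the active marks for a call between the libraries. Over the gene body they could be compared, and none of them was past 2-fold, with 112 reads and 87 reads of H3K4me3 and a ratio of 0.653 (0.488–0.872).

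The distal regions of Pax3 were marked even so. The region with the most H3K27ac reads, 20.1 kb upstream of the TSS at chr1:78212367-78215314, had 236 H3K4me2 reads in myoblasts, or 47.7-fold, and 71 in myotubes, or 13.0-fold. Its H3K4me2 ratio was 0.272 (0.205–0.355). H3K4me3 there was 42 reads and 20 reads, or 13.1-fold and 5.26-fold, with a ratio of 0.401 (0.223–0.698), and H3K27ac 14 reads and 13 reads with a ratio of 0.365 (0.158–0.838). All 3 were past 2-fold lower in myotubes, but the H3K27ac ratio was 0.582 relative to the median of marked genes and then no longer so. An intronic region 7.46 kb downstream was also past 2-fold lower for H3K4me2, at 68 reads and 25 reads, with a ratio of 0.332 (0.201–0.532) that was 0.509 relative to the median of marked genes, just short of 2-fold.

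Six4, a homeodomain factor expressed in muscle precursors, had the most H3K4me3 of the 7 genes. It lies on the minus strand at chr12:74201246-74214401. H3K4me3 at its TSS was 151 reads in myoblasts, or 34.8-fold (29.5–40.8), and 144 in myotubes, or 27.9-fold (23.6–32.9), with a ratio of 0.802 (0.634–1.01). Its H3K4me3 level was higher than that of 93.9% of genes in myoblasts and 89.4% in myotubes. H3K27ac was 92 reads, or 31.7-fold (25.5–38.8), and 102 reads, or 13.8-fold (11.3–16.8), in a myotube library that held 2.54 times as many reads in all. The H3K27ac ratio was 0.436 (0.326–0.584), and 0.695 relative to the median of marked genes, which 29.1% of genes fell below.

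H3K36me3, the mark of transcribed gene bodies, was called over 2 of the 7 genes in myoblasts (Six4 and Eya1), against 48.2% of genes, and over 2 in myotubes (Six4 and Six5), against 47.9%. Over Six4 it was 296 reads in myoblasts, or 9.80-fold, and 118 in myotubes, or 6.37-fold, with a ratio of 0.650 (0.521–0.807). Among the 7 genes 0 were past 2-fold lower for H3K36me3 over the body, against 6.41% of genes, and 1 was past 2-fold higher (Six5), against 7.65%. H3K27me3 was at or below the genome mean at the Six4 TSS, with 8 reads and 1 read.

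The flanks of Six4 had more of the H3K4 marks in myotubes, without reaching 2-fold when scaled by total reads. Flank H3K4me2 was 477 reads in myoblasts and 748 in myotubes, with a ratio of 1.42 (1.26–1.59). Relative to the median of marked genes, a TSS median, the flank ratio was 2.17 (1.93–2.44) for H3K4me2 and 1.97 (1.73–2.25) for H3K4me1. H3K4me1 in the flanks was 367 reads in myoblasts and 602 in myotubes, or 1.48-fold and 2.50-fold, with a ratio of 1.69 (1.49–1.93) by total reads. H3K4me3 was 271 reads and 481 reads with a ratio of 1.49 (1.28–1.74). The start of the neighbouring Mnat1, a subunit of the kinase that activates cyclin-dependent kinases, lies in these flanks 10472 bases from that of Six4. Its own H3K4me3 was 18.2-fold in myoblasts and 41.7-fold in myotubes, and how much of the flank value it carries was not tested. Of the 14 distal regions near Six4, an intronic region 5.94 kb downstream was past 2-fold higher in myotubes for H3K4me2, at 5 reads and 21 reads, with a ratio of 3.79 (1.39–12.9). The distal region with the most H3K27ac reads, 59.9 kb downstream of the TSS and beyond the gene, had 70 H3K27ac reads in myoblasts and 81 in myotubes, or 33.7-fold and 15.3-fold, with a ratio of 0.455 (0.326–0.636) that was 0.726 relative to the median of marked genes and then not past 2-fold. H3K4me1 there was past 2-fold higher in myotubes, at 28 reads and 61 reads, with a ratio of 2.25 (1.42–3.66), and it carried H3K4me3 as well, at 34.5-fold and 21.2-fold.

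Six5, which lies next to Dmpk, the gene of myotonic dystrophy, is a short gene on the plus strand at chr7:19679893-19683694. H3K4me2 at its TSS was 326 reads in myoblasts, or 48.6-fold (43.4–54.1), and 134 in myotubes, or 18.0-fold (15.1–21.3) and its level was the highest of the 7 genes in both, although its interval overlapped that of Eya1 in myotubes. The ratio was 0.371 (0.301–0.455), and 0.569 relative to the median of marked genes. H3K4me3 was 43 reads, or 9.92-fold (7.18–13.4), and 23 reads, or 4.46-fold (2.83–6.69), with a ratio of 0.450 (0.259–0.763) that was lower than for all but 5.07% of genes, and with a window of 1 kb on either side it was 0.623 and not past 2-fold. H3K27ac was 25 reads and 26 reads, or 8.60-fold and 3.52-fold, with a ratio of 0.409 (0.227–0.739).

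H3K4me1 was called within 2 kb of the Six5 start in both cell types, at 78 reads or 7.70-fold and 61 reads or 6.22-fold, with a ratio of 0.808 that was not past 2-fold. Within 1 kb of the TSS it was 20 reads or 3.95-fold and 25 reads or 5.10-fold, with a ratio of 1.29. The deposited myoblast H3K4me1 peak in the window, at chr7:19677483-19679355, lay wholly upstream of the Six5 start. Scaled by total reads, H3K4me3, H3K4me2 and H3K27ac within 2 kb of the Six5 start were past 2-fold lower in myotubes. Relative to the median of marked genes H3K4me2 was 0.569 and H3K27ac 0.652 (0.362–1.18), and neither was then past 2-fold. H3K36me3 over the Six5 body was higher, at 6 reads or 1.21-fold in myoblasts and 14 reads or 4.61-fold in myotubes. That ratio was 3.81 (1.37–12.1) and rests on 20 reads in all. H3K36me3 was above the mean around the start as well, with 45 reads and 37 reads at the TSS, or 4.09-fold and 5.49-fold. Dmpk, a muscle kinase, ends upstream of the Six5 start and is transcribed toward it, and reads of its end fall in the TSS window of Six5. The Dmpk start, 9834 bases away, had H3K27ac of 30.3-fold in myoblasts and 30.2-fold in myotubes, and its part in the Six5 values was not tested.

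Six2, best known for its part in the progenitors of the kidney, is a short gene on the minus strand at chr17:86083608-86087594. H3K27me3 at its TSS was 35 reads in myoblasts, or 3.19-fold (2.22–4.44), and 16 reads in myotubes, or 2.04-fold (1.17–3.31). The ratio was 0.640 (0.331–1.19), so the myotube value fell short of the threshold without a called difference between the libraries. H3K4me3 was 5 reads and 4 reads, and H3K27ac 3 reads and 7 reads, all within counting error of the genome mean. With a window of 1 kb on either side the myoblast H3K27me3 value was 2.37-fold, the same as at Eya2, and neither start was then called in myoblasts. In the 50 kb on either side H3K27me3 stood at 663 reads and 498 reads, or 2.47-fold and 2.59-fold, with a ratio of 1.05 (0.934–1.18).

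Eya1, a coactivator of those homeodomain factors, lies on the minus strand at chr1:14159035-14300281. Unlike Eya2 it carried H3K4me3 and H3K27ac at its TSS. H3K4me3 at its TSS was 101 reads in myoblasts, or 23.3-fold (19.0–28.3), and 92 in myotubes, or 17.8-fold (14.4–21.9), with a ratio of 0.766 (0.571–1.03). H3K4me2 went the other way, at 73 reads, or 10.9-fold (8.52–13.7), and 126 reads, or 16.9-fold (14.1–20.2). Its ratio of 1.56 (1.16–2.11) was higher than that of 94.3% of genes, and relative to the median of marked genes it was 2.39 (1.78–3.23), past 2-fold. With a window of 1 kb on either side, H3K4me2 was 17.6-fold in myoblasts and 16.7-fold in myotubes, and the ratio was 0.949. H3K27ac was 31 reads and 67 reads, or 10.7-fold and 9.07-fold, with a ratio of 0.850 (0.548–1.35).

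H3K36me3 over the long Eya1 body came close to 2-fold lower in myotubes. It was 1346 reads in myoblasts, or 3.52-fold, and 422 reads in myotubes, or 1.80-fold. The ratio was 0.511 (0.457–0.571), just short of 2-fold, and 0.490 relative to the median of marked genes, and 7.60% of genes had a lower ratio. The myotube value fell below the 2-fold threshold for a gene body. H3K27me3 was at or below the genome mean at the TSS, with 11 reads and 2 reads. The distal region with the most H3K27ac reads lay over an exon 5.02 kb downstream of the TSS, at chr1:14294393-14295968. H3K27ac there was 16 reads and 11 reads, or 14.0-fold and 3.78-fold, and past 2-fold lower in myotubes with a ratio of 0.270 (0.114–0.621).

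Eya2, a second Eya coactivator, lies on the plus strand at chr2:165480798-165597227 and had the most H3K27me3 of the 7 in myotubes. At its TSS H3K27me3 was 35 reads in myoblasts, or 3.19-fold (2.22–4.44), and 35 reads in the smaller myotube library, or 4.46-fold (3.11–6.21), higher than in 90.8% and 98.1% of genes. The myotube call was lost at the higher threshold of 5-fold, and also when the surrounding 200 kb served as the background. The ratio was 1.40 (0.851–2.30) and not past 2-fold. Eya2 has 6 annotated starts. Within 1 kb of a start 9490 bases downstream, H3K27me3 was 4.56-fold (2.95–6.73) in myoblasts and 4.34-fold (2.53–6.94) in myotubes. Over the gene body it was 931 reads and 711 reads, or 2.97-fold and 3.17-fold, with a ratio of 1.07 (0.968–1.18), and in the 50 kb on either side 588 reads and 596 reads, or 2.19-fold and 3.10-fold, with a ratio of 1.42 (1.26–1.59). None of the 7 genes was past 2-fold for H3K27me3 over the gene body in either direction, against 0.761% of genes lower and 10.8% higher.

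H3K27me3 at Eya2 formed a broad domain. The run of neighbouring 5 kb bins at 3-fold or more that holds the TSS spanned 50 kb in myoblasts and 85 kb in myotubes. The runs over the starts of Pax7 and Six2 spanned 15 kb each in myoblasts and 0 kb in myotubes, where the bin of the TSS was at 1.63-fold for Pax7 and 1.84-fold for Six2. A single bin below 3-fold ends a run. Bins at 3-fold or more within 50 kb of the TSS, in a run or not, numbered 13 in myoblasts and 17 in myotubes for Eya2. They numbered 3 and 0 for Pax7, and 7 and 4 for Six2. Pax3, Six4, Six5 and Eya1 had no such run in either cell type.

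**Figure D4:**
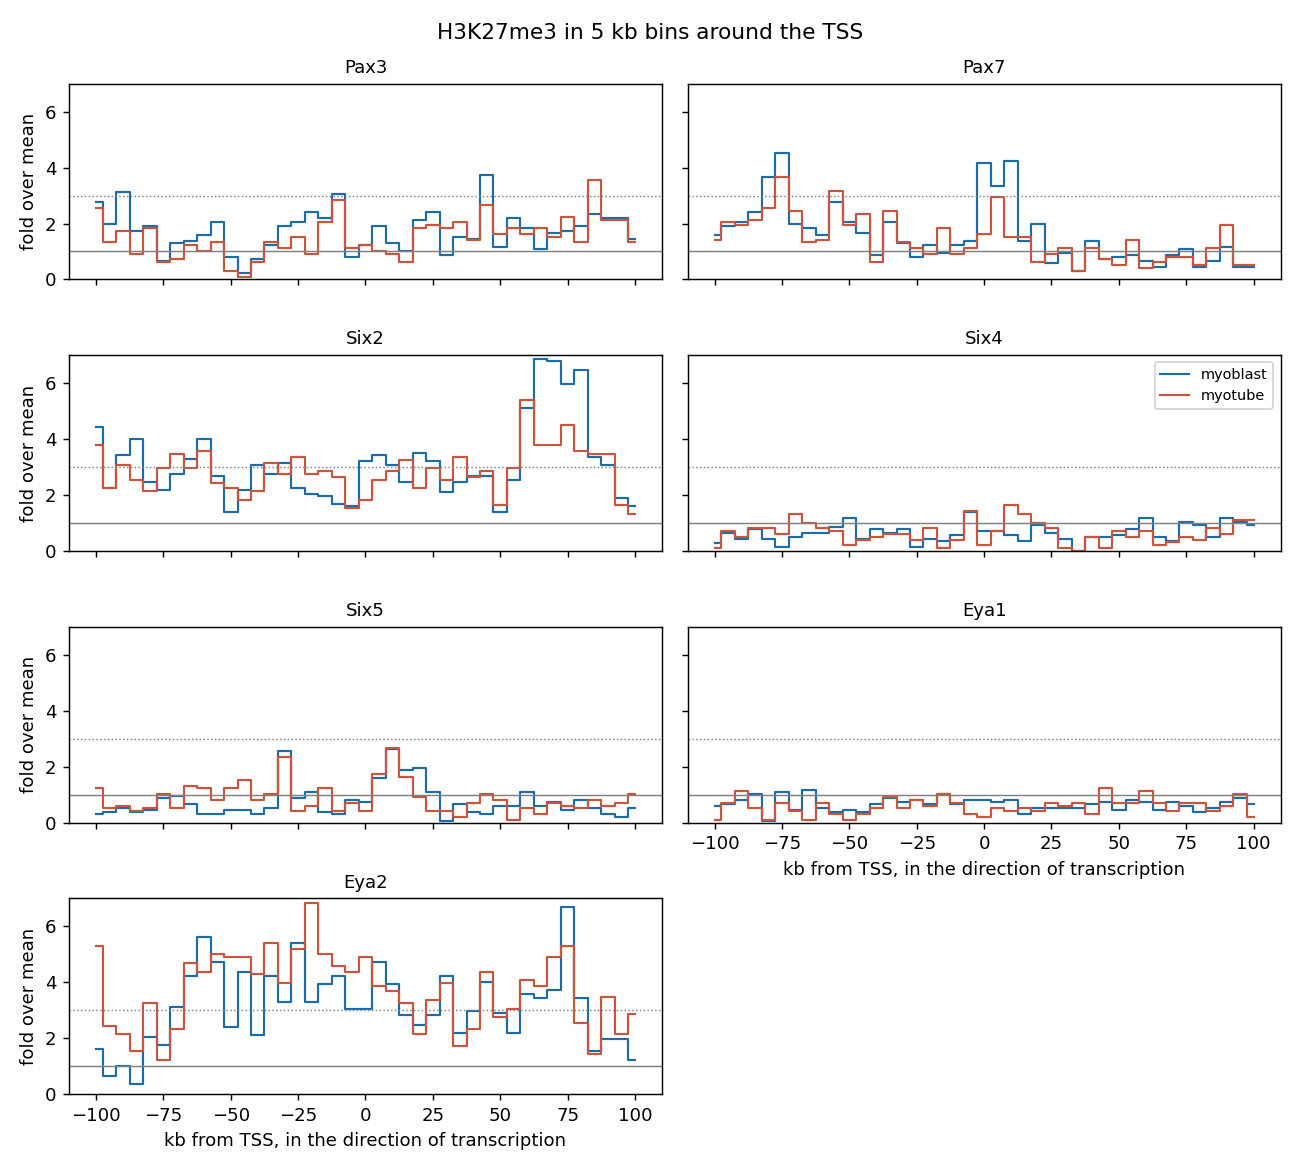
H3K27me3 fold over the genome mean in 5 kb bins across 100 kb on either side of the TSS of each gene, in the direction of transcription, for myoblasts and myotubes (1 library each). The solid line is the genome mean and the dotted line 3-fold. The domain over the Eya2 start spanned 50 kb in myoblasts and 85 kb in myotubes, that over the Pax7 start was present only in the myoblast library, and the bins at the starts of Six4 and Eya1 lay below the genome mean.

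H3K4me1 and H3K4me2 were called at the Eya2 start in myoblasts and not in myotubes. H3K4me1 was 55 reads in myoblasts, or 5.43-fold (4.09–7.07), and 27 in myotubes, or 2.75-fold (1.81–4.01), with a ratio of 0.507 (0.307–0.818), and with a window of 1 kb on either side the ratio was 0.313 and past 2-fold lower. H3K4me2 was 25 reads, or 3.72-fold (2.41–5.50), and 13 reads, or 1.75-fold (0.931–2.99), with a ratio of 0.469 (0.221–0.953). H3K4me3 was 7 reads and 9 reads, within counting error of the genome mean. In the Eya2 flanks H3K36me3 was 4.76-fold and 5.87-fold, and these flanks overlap the body of Zmynd8, a chromatin reader.

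Eya2 and Six2, which in myoblasts were called for H3K27me3 without H3K4me3 within 2 kb of the TSS, differ in promoter sequence. The 300 bases upstream of the Six2 start, at chr17:86087595-86087894 on the minus strand, hold 29 CpG dinucleotides, more than 89.0% of genes. Those upstream of the 5′-most Eya2 start, at chr2:165480498-165480797 on the plus strand, hold 1, more than 6.13% of genes. Eya2 has 6 annotated starts, and CpG upstream of the others was not counted. CpG dinucleotides are in capitals.
Six2 promoter: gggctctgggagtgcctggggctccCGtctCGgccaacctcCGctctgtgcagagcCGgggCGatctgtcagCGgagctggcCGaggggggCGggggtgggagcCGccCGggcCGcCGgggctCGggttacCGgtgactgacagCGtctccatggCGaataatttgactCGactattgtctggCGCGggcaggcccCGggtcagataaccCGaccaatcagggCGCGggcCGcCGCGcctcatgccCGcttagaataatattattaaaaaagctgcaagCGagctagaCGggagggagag
Eya2 promoter: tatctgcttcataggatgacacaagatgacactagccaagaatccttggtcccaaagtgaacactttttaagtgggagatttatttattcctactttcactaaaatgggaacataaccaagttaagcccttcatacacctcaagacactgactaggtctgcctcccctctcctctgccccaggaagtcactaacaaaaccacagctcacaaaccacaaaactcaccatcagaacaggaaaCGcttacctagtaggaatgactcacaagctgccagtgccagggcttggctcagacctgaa

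The promoters of the genes with H3K4me3 and H3K27ac in both cell types lay between these. They held 14 CpG at Six4, 17 at Six5 and 6 at Eya1, and Pax3 had 12. MEF3 was found in none of the 7 promoters, and in 4.27% of the 22350 promoters of the same length. The E-box was found at Pax7 and Eya1, and in 13.7% of promoters. That of Eya1 is in capitals in the 300 bases upstream of its 5′-most start, at chr1:14300282-14300581 on the minus strand. This promoter is shown because it holds the same motif as that of Pax7 and carried H3K4me3 and H3K27ac in both cell types.
Eya1 promoter: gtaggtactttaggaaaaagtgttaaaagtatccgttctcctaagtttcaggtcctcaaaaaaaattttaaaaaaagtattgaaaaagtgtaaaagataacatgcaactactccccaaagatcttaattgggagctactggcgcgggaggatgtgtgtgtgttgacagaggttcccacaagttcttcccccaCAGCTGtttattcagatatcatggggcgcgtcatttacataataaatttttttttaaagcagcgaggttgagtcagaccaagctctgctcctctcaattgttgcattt

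The deposited peak lists called H3K4me3 at the same genes as the reads in myoblasts, and in myotubes kept Pax7 and left out Six5. Pax7, Six4, Six5 and Eya1 had an H3K4me3 peak within 2 kb of the TSS in myoblasts, and Pax7, Six4 and Eya1 in myotubes. The Pax7 peak had a MACS score of 146 in myoblasts and 52.8 in myotubes, whose lists begin at a score of 50, and the Six4 peak scored 1880 and 2214. The myoblast peak lists of H3K27ac and H3K27me3 are exchanged between their samples. The list deposited with the H3K27me3 sample lay over H3K27ac reads at 36.4-fold and H3K27me3 reads at 0.804-fold, so the lists of these marks were not used for any level above.

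The pattern of 12 TSS levels, as log2 of fold plus 0.5, was compared between genes by Euclidean distance. Six4 and Eya1 were 2.69 apart and Pax3 and Six2 1.62 apart, where the median gene was 7.15 from Six4 and 5.85 from Pax3. Pax3 and Pax7, the closest relatives of the group, were 5.42 apart. The most similar gene elsewhere in the genome was Ern2 for Pax3 (0.936), D0H4S114 for Pax7 (1.65), Krt12 for Six2 (1.05), Zfp397 for Six4 (0.634), E130306D19Rik for Six5 (1.41), D4Ertd22e for Eya1 (0.893) and Prlr for Eya2 (1.25).

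Other genes of the network were read in the same way. Of 13 further genes of the same families and of the related Dach cofactors, 3 carried H3K4me3 in myoblasts and 3 in myotubes, and 7 carried H3K27me3 in each, against 50.7%, 51.1%, 10.0% and 7.11% of all genes. At the TSS 3 of these 13 were past 2-fold lower in myotubes for H3K27me3 (7.98% of the genes tested were), 3 for H3K4me1 (15.2%) and 2 for H3K4me2 (31.0%). For H3K4me3 (6.59%), H3K27ac (36.5%) and H3K36me3 (11.0%) 1 gene each was lower, and 0 were higher for any mark. Their median H3K27me3 ratio was 0.571 over 10 genes tested, beside 0.866 over all genes. Of 10 partners and targets, which include the homeobox factors Meox1, Meox2, Lbx1 and Pitx3, the receptor Met and the myogenic factors Myf5, Myod1 and Myog, 6 carried H3K4me3 in myoblasts and 7 in myotubes. For H3K4me3 2 of them were past 2-fold higher and 1 lower, against 4.50% and 6.59% of genes, and for H3K27ac 1 was higher and 1 lower, against 6.06% and 36.5%.

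The largest differences among these 23 genes were of Msc, a repressor of myogenic E-box activity, and of Pax8 and Myog. H3K27ac at the Msc start was 85 reads in myoblasts and 5 in myotubes, or 29.2-fold and 0.677-fold, a ratio of 0.0231 (0.00733–0.0561), and its H3K4me3 ratio was 0.182 (0.0989–0.315). Pax8, a thyroid and kidney factor, had 51 H3K36me3 reads at its start in myoblasts and 2 in myotubes, a ratio of 0.0640 (0.00754–0.243), and 17 and 4 H3K4me3 reads. Myog, the factor that drives terminal differentiation, had 24 H3K27ac reads in myoblasts and 429 in myotubes, or 8.26-fold and 58.1-fold, a ratio of 7.03 (4.66–11.1). The next were lower in myotubes for H3K4me1. Pax9 had 41 and 10 reads, a ratio of 0.252 (0.112–0.511), and the eye and brain factor Pax6 25 and 7, a ratio of 0.289 (0.106–0.688). Meox2 had 16 and 5 reads, a ratio of 0.323 (0.0925–0.922). H3K4me1 was not called in either cell type at Pax6, at 2.47-fold and 0.714-fold, or at Meox2, at 1.58-fold and 0.510-fold. These ratios are scaled by total reads. The upper bound for Meox2 lies above the H3K4me1 median of marked genes (0.861), so relative to that median its interval includes 1. Thus, of these 6 genes, Myog alone was higher in myotubes.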

How the data were processed

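The authors aligned the reads to mm9 (NCBI build 37) with Mosaik and kept unique alignments. The deposited read files hold a count of 1 for each 34 bp read, and the deposited peak files a MACS score per peak. What was merged, whether duplicates were removed and the MACS settings are not given in the sources used here. In each library 0.417% to 3.14% of reads shared position and strand with another.

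Reads on chromosomes 1 to 19 and X were extended to 150 bp and their midpoints counted, with genes from GENCODE M1 (Ensembl 65) and the mean over 2555806925 known bases. Scripts ran in Python 3.11.15 with numpy 2.4.6 and scipy 1.17.1 and were tested on simulated counts. No p-value was computed, since each group is 1 library. Promoters are the 300 bases upstream of the 5′-most annotated start, so that no exon of the gene is printed.

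All 7 genes are described. Of 23 other network genes, values are given for the 6 with the largest called ratio at the TSS, and 1 further gene of the list is not reported here. In each locus the distal region with the most H3K27ac reads is named, and other regions were picked after their values were seen. The genes and lists were chosen with earlier results of these data known. The alternatives changed the window, the start, the read extension, duplicate reads, the thresholds, the background (200 kb around), the depth, the scaling and the peak lists.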

Additional observations from a re-analysis of the deposited data

How the results depend on the processing

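No direction of a called result reversed under any alternative, and 854 of 917 single values and 179 of 206 counts of genes or regions stayed within the limits set for no change. H3K27me3 was the most dependent on the threshold. Its 3 marked genes in myoblasts became 1 with a window of 1 kb, 0 at the higher fold threshold and 1 against the surrounding 200 kb. Its 1 marked gene in myotubes became 2 at the lower threshold, 0 at the higher threshold and 0 against the surrounding 200 kb. The 1 gene with both H3K4me3 and H3K27me3 became 0 at the higher threshold. Against the surrounding 200 kb the genes with H3K27ac in myoblasts went from 4 to 2 and those with H3K36me3 over the body from 2 to 1 in each cell type. With a window of 1 kb the genes past 2-fold lower went from 2 to 0 for H3K4me3, from 2 to 1 for H3K4me2 and from 0 to 1 for H3K4me1, and with unextended reads from 0 to 1 for H3K4me1. Scaling by reads outside peaks gave 4 genes lower for H3K4me2 and 2 for H3K4me1. It multiplied the ratio of every gene by 0.643 for H3K4me2 and 0.808 for H3K4me1, and the share of all genes lower under it is not given. Scaling by the median of marked genes left 0 lower for H3K4me2 and 0 for H3K27ac, and gave 1 higher for H3K4me2, 1 lower for H3K36me3 over the body and 1 higher for H3K27me3 over the body. It also left 4 of 7 distal regions lower for H3K27ac and made 1 higher. The shares of all genes and of all distal regions under that scaling are not given. With no minimum of reads 13 distal regions were lower for H3K27ac. By deposited peaks, the genes with a peak at the TSS in myoblasts changed from 1 to 3 for H3K27ac and from 3 to 1 for H3K27me3 with the lists exchanged. That 1 gene was Pax7, and Six2 and Eya2 had no H3K27me3 peak at the TSS in myoblasts. The 1 gene with an H3K27me3 peak in myotubes became 0 at a MACS score of 100. The cause of these changes was not tested beyond what each alternative alters by construction. Scaling by the median of marked genes assumes that the typical marked gene does not change. No paired analysis was possible because each mark had 1 library per cell type and no test was run. Depth limited the calls at the TSS of Pax3, where no active mark reached 20 reads in both libraries together, so a difference in that window was not detectable.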
